A study of Mus musculus with 6 samples.

Results

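Fatty acid oxidation genes were followed in the visceral (epididymis) fat of normal diet (ND) and high fat diet (HFD) mice. The members are 38 genes of the mitochondrial and the peroxisomal pathway, chosen by gene symbol and matched to the Ensembl identifiers of the count table through the GENCODE M21 annotation of GRCm38. All 38 were found among the 54532 identifiers of the table, each with 1 identifier, and 36 passed the filter on low counts and were tested. Of the 38, 19 act in mitochondria, 14 act in peroxisomes, and 5 act elsewhere or in both. Both groups were male C57BL/6J mice without drug treatment. ND-fed mice received a chow with 4.5% fat and HFD-fed mice a chow with 60% fat from 4 weeks of age for 16 weeks, so the HFD-fed mice were 20 weeks old. Each diet had 3 libraries of total RNA from excised fat tissue, named ND1, ND2, ND3 and HFD1, HFD2, HFD3. Nothing in the labels ties a library to its own animal, so the p-values measure the spread between these libraries only. In whole tissue, fewer cells of a type and less RNA per cell cannot be told apart.

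Long-chain fatty acids enter mitochondria as carnitine esters, made by carnitine palmitoyltransferase 1 on the outer membrane and turned back into acyl-CoA by carnitine palmitoyltransferase 2 on the inner membrane. A repeating cycle of dehydrogenation, hydration, a further dehydrogenation and thiolytic cleavage then removes acetyl-CoA, and electrons leave through the electron transfer flavoprotein. Peroxisomes run a related cycle that starts with an oxidase and shortens very long, branched and dicarboxylic acids. White fat stores fatty acids for the most part, and its adipocytes carry both pathways.

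The libraries held 16996896 to 18859320 counts. Values are given as CPM, the usual unit of counts scaled to library size, here after scaling by the trimmed mean of M values (TMM), and a count of 3 corresponded to 0.149 to 0.18 CPM. No pair of libraries agreed within sampling noise, the smallest chi-square per gene being 19 between ND1 and ND3. The 15 adipocyte markers were all detected, and 3 of them, Retn, Cfd and Slc2a4, were lower on HFD. Their summed level ran from 48054 to 64219 CPM on ND and from 22376 to 45975 CPM on HFD. Without Cfd, the marker with the largest difference in CPM, the sums overlapped, at 36343 to 48600 CPM on ND and 22214 to 43475 CPM on HFD. The 15 macrophage markers summed to between 1921 and 2034 CPM on ND and between 4485 and 9945 CPM on HFD, with 10 of 15 higher on HFD. ND3 stood apart by 8 epithelial markers, which summed to 315 CPM there and to between 21.1 and 31.1 CPM in the other 5 libraries. Markers of skeletal muscle and liver, tissues rich in oxidation enzymes, were low, and their sums differed between the diets without overlap. The 9 muscle markers summed to 27.6 to 70.3 CPM on ND and 10.5 to 14.9 CPM on HFD, with Ckm and Myh4 at 0 counts in all 6 libraries. Acta1 was lower, at 22.1, 65.4 and 30.1 CPM on ND against 3.16, 5.71 and 3.8 CPM on HFD. It made up most of the ND muscle sum, so the difference in that sum rests on Acta1. Pvalb was higher, at 0.216, 0.0579 and 0.497 CPM on ND against 4.47, 5.59 and 4.14 CPM on HFD. The other 3 tested muscle markers passed in neither direction. The 7 liver markers summed to 18.4 to 29.4 CPM on ND and 2.88 to 11.8 CPM on HFD, with Serpina1a lower and Fgb at 0 counts throughout. Alb and Serpina1a made up most of the liver sum in each library. Alb had 13.6, 19.5 and 11.4 CPM on ND against 3.27, 7.7 and 0.863 CPM on HFD and did not pass in edgeR. The part of these markers in the members' values was not tested. Of the 7 brown adipocyte markers, 4 were tested and 0 passed in edgeR, with 1 at an unadjusted p under 0.05. That gene, Cox8b, had 10.5, 25.2 and 17.4 CPM on ND against 7.15, 12.2 and 3.57 CPM on HFD and passed as lower in DESeq2 (log2 fold change -1.21, edgeR adjusted p = 0.125, DESeq2 adjusted p = 0.0473). Cidea, Dio2 and Cox7a1 were detected in both diets at 0.398 to 6.02 CPM. Zic1 was at 0 throughout, and Ucp1 had 0 counts in the ND libraries and 1 to 9 counts in the HFD libraries. Endothelial, mesothelial and lymphocyte markers, 20 genes in all, had none past the threshold in edgeR, with 1 endothelial gene at an unadjusted p under 0.05 and 1 past the threshold in DESeq2.

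More members were lower than higher on HFD. In the edgeR quasi-likelihood test, with Benjamini-Hochberg adjustment over all 15751 genes tested and a threshold of 0.05, 8 of 36 members (22.2%) were lower on HFD, where 6.04% of all genes tested were. Another 2 members (5.56%) were higher, where 9.85% of all genes were, and 26 passed in neither direction. The members were chosen with earlier results of these data known, so the shares are descriptions and the list was not tested. The lower members were Cpt2, Acad10, Echs1 and Acot2 of the mitochondria and Ehhadh, Scp2, Acot4 and Pex11a of the peroxisomes. The higher members were Cpt1a and Acox3. Over the 36 members the median log2 fold change was -0.39, and over all genes it was 0.01. In 17 members all 3 HFD values lay below all 3 ND values, against 19.0% of all genes, and in 2 members they lay above, against 21.9% of all genes. DESeq2 called 14 members lower, Acox2 among them, and 2 higher, where it called 8.81% of 18348 genes lower. Among the 15751 genes tested in edgeR, DESeq2 called 1532 lower and 1980 higher.

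**Figure D1:**
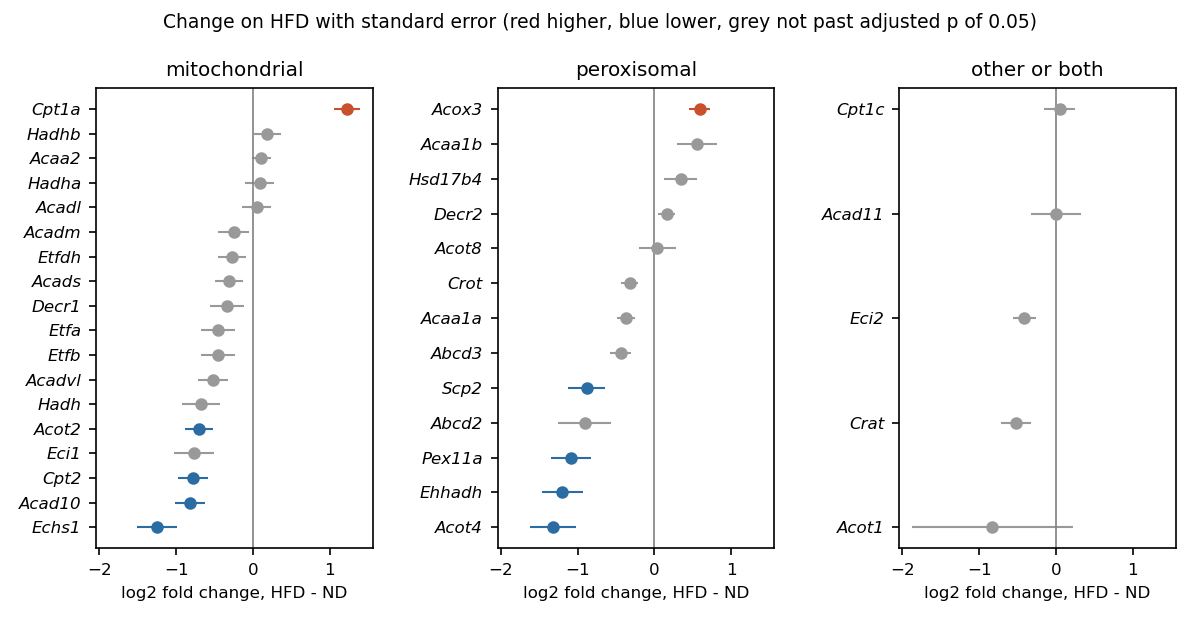
Log2 fold change (HFD minus ND) of the 36 tested members, with the standard error as a bar, ordered by size within the mitochondrial, the peroxisomal and the remaining members. Red points passed the edgeR threshold as higher, blue points as lower, and grey points did not pass; Cpt1a at 1.23 stands alone at the top of the mitochondrial members and Acot4 at -1.32 is the lowest of all.

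These counts depended on single libraries. Leaving out ND1, ND2 or HFD1 left 0 members lower, leaving out ND3 left 1 and leaving out HFD3 left 5, while leaving out HFD2 gave 16. Calls over all genes moved in the same direction, from 2504 with every library to 492, 591 and 474 without ND1, ND2 or HFD1. They were 1003 without ND3, 2095 without HFD3 and 3940 without HFD2. Cpt1a passed in all 6 of these fits. Each of the other 9 called members passed in 1 to 3 of the 6 and kept its sign in every one. The test was also run on simulated counts of the same 15751 genes. It recovered 43 of 100 genes changed by 1 on the log2 scale and 80 of 100 changed by 2, and called 6 unchanged genes. The changed genes were drawn only from those above a minimum mean count, so recovery at low counts was not measured.

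Most members ranked the libraries of a diet alike. ND2 was the highest ND library for 28 of 36 members, and ND3 was the lowest for 26. On HFD, HFD2 was the highest for 29 and HFD3 was the lowest for 27. The median log2 difference of the members from their ND mean was -0.42 in HFD1, -0.12 in HFD2 and -0.60 in HFD3, and lay between -0.13 and 0.17 in the ND libraries. HFD2, the HFD library nearest to ND, also had the highest adipocyte sum on HFD (45975 CPM) and the lowest macrophage sum (4485 CPM). HFD3, the farthest, had the lowest adipocyte sum (22376 CPM) and the highest macrophage sum (9945 CPM). Among the 3 HFD libraries, 26 of 36 members ran in the reverse order of the macrophage sums and 5 in the same order. Both members called higher, Cpt1a and Acox3, were among the 5, with their highest value in HFD3 and their lowest in HFD2. Neither the library ranks nor this order was counted over all genes, so they are not shown to be particular to the members. What part the marker genes had in the members' values was not tested.

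**Figure D2:**
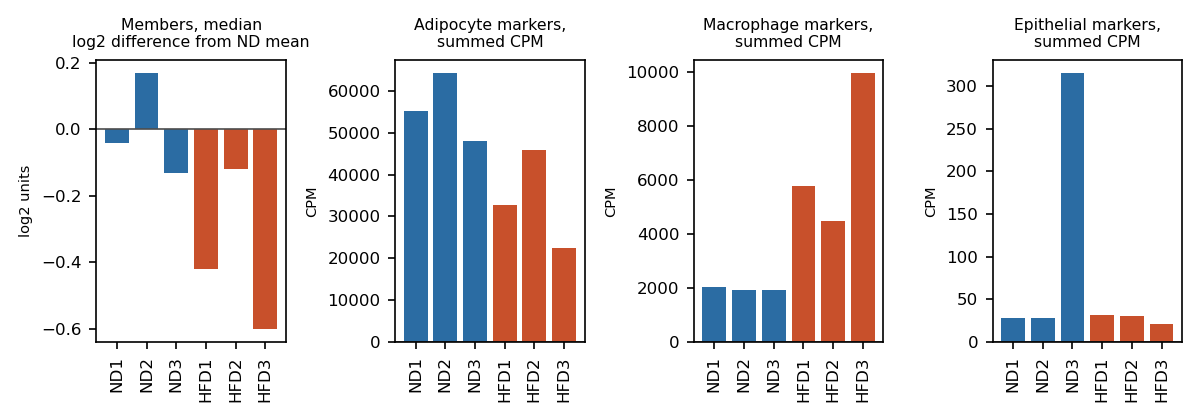
Bars per library for the median log2 difference of the 36 members from their ND mean and for the summed CPM of the adipocyte, macrophage and epithelial markers, ND in blue and HFD in red. The members' median and the adipocyte sum are lowest in HFD3, the macrophage sum is highest there at 9945 CPM, and the epithelial sum is high in ND3 alone at 315 CPM.

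The 2 enzymes of the long-chain carnitine shuttle moved in opposite directions. Cpt1a encodes the carnitine palmitoyltransferase 1 of liver and many other tissues, the step that malonyl-CoA inhibits, and lies at chr19:3322334-3385733 on the plus strand. Cpt1a stood at 81.5, 87.4 and 99.0 CPM in ND1 to ND3 and at 201, 174 and 253 CPM in HFD1 to HFD3. All HFD values were above all ND values, 2.34-fold on average (log2 fold change 1.23, SE 0.17, edgeR adjusted p = 0.00835). Cpt2, at chr4:107903981-107923610 on the minus strand, encodes the inner membrane enzyme. Its values were 133, 145 and 108 CPM on ND against 70.2, 94.0 and 60.2 CPM on HFD. They did not overlap and were 1.72-fold lower on HFD (log2 fold change -0.78, SE 0.20, edgeR adjusted p = 0.0375). Per length, the FPKM of Cpt1a over that of Cpt2 was 0.341, 0.335 and 0.512 on ND and 1.59, 1.03 and 2.34 on HFD, so that the Cpt1a level lay below the Cpt2 level in every ND library and above it in every HFD library.

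The other carnitine acyltransferases did not pass. Crat, the carnitine acetyltransferase of mitochondria and peroxisomes, stood at 307, 338 and 254 CPM on ND against 207, 253 and 165 CPM on HFD (log2 fold change -0.52, SE 0.20, edgeR adjusted p = 0.111). Crot, the peroxisomal carnitine octanoyltransferase that makes medium-chain carnitine esters for export, ran from 54.9 to 63.2 CPM on ND and from 43.9 to 49.2 CPM on HFD (log2 fold change -0.32, SE 0.11, edgeR adjusted p = 0.0882). Neither gene's groups overlapped. Cpt1c, a form best known from brain, was low and level, with means of 5.99 and 6.19 CPM and overlapping groups. Cpt1b, the muscle form, was too low to be tested, at 1, 0 and 1 counts in ND1 to ND3 against 6, 4 and 6 counts in HFD1 to HFD3. Of its 100-base transcript stretches, 91.1% also occur in the overlapping gene Gm44502, which had 0 counts in all 6 libraries. How reads that fit both genes were counted is not given in the sources used here, so the level of Cpt1b is uncertain.

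The acyl-CoA dehydrogenases carry out the first step of the mitochondrial cycle for fatty acids of different lengths. Among them 1 of 6 passed, as lower on HFD, where 6.04% of all genes tested were lower. That gene was Acad10 (chr5:121621026-121660514, minus strand), a multidomain member of the family whose substrates are less well known. Acad10 had 20.4, 22.1 and 18.3 CPM on ND against 13.2, 12.5 and 8.74 CPM on HFD, without overlap (log2 fold change -0.82, SE 0.19, edgeR adjusted p = 0.0294). The classical enzymes for very long, long, medium and short chains did not pass. Acadvl stood at 114, 126 and 104 CPM on ND against 77.0, 102 and 61.6 CPM on HFD (log2 fold change -0.52, SE 0.19, edgeR adjusted p = 0.108). HFD2 was just below the lowest ND library there, and the groups did not overlap. Acadl had nearly equal means of 252 and 261 CPM, and Acadm (443 and 373 CPM) and Acads (151 and 122 CPM) overlapped between diets. Acad11 had a mean of 91.5 CPM on ND against 91.6 CPM on HFD, but its HFD libraries spread from 49.3 to 128 CPM, wider than the ND range of 82.1 to 110 CPM.

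The electron transfer flavoprotein takes electrons from all of these dehydrogenases, and its 3 genes shifted by similar amounts without passing. Log2 fold changes were -0.45 for Etfa (SE 0.22, edgeR adjusted p = 0.2), -0.45 for Etfb (SE 0.22, edgeR adjusted p = 0.195) and -0.27 for Etfdh, the ubiquinone reductase (SE 0.18, edgeR adjusted p = 0.316). The groups overlapped in each. Etfa and Etfb encode the subunits of one dimer, and the FPKM of Etfa over that of Etfb was 7.53 ± 0.891 on ND and 7.48 ± 0.232 on HFD (SD, n = 3). The level of Etfb is uncertain, because 65.2% of its 100-base stretches also occur in Gm45233, a gene with 0 counts in all 6 libraries.

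The later mitochondrial steps were not shifted alike. Echs1 (chr7:140105710-140116476, minus strand) encodes the short-chain enoyl-CoA hydratase of the matrix and had the lowest log2 fold change of the mitochondrial members. Echs1 stood at 368, 414 and 311 CPM on ND against 153, 205 and 104 CPM on HFD. All HFD libraries were below all ND libraries, 2.37-fold on average (log2 fold change -1.25, SE 0.26, edgeR adjusted p = 0.0229). Hadh, the short-chain hydroxyacyl-CoA dehydrogenase that follows it, had 393, 468 and 339 CPM on ND against 242, 329 and 177 CPM on HFD. These groups did not overlap, with HFD2 just under ND3, but the gene did not pass in edgeR (log2 fold change -0.68, SE 0.25, edgeR adjusted p = 0.103) and did in DESeq2 (adjusted p = 0.0395).

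Hadha and Hadhb, the subunits of the trifunctional protein that handles long chains on the inner membrane, stayed near their ND level. Hadha had 248, 336 and 215 CPM on ND against 280, 262 and 310 CPM on HFD (log2 fold change 0.09, SE 0.19, edgeR adjusted p = 0.771). Hadhb had 220, 271 and 185 CPM on ND against 262, 280 and 229 CPM on HFD (log2 fold change 0.19, SE 0.18, edgeR adjusted p = 0.482). Both genes overlapped between diets. Acaa2, the matrix thiolase, was likewise level, with means of 156 and 168 CPM. Set against the long-chain protein, the FPKM of Echs1 over that of Hadha was 1.57, 1.30 and 1.53 on ND and 0.576, 0.825 and 0.352 on HFD, and the groups did not overlap. For Hadhb, 52.8% of the 100-base stretches recur in processed pseudogenes, of which Gm13910 was itself given 979 to 1364 counts a library, so its counts may be split.

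Hadha and Hadhb lie head to head on chromosome 5, with 85 bases between them in GENCODE M21 and 272 bases between their first bases in RefSeq. The FPKM of Hadha over that of Hadhb was 0.850, 0.937 and 0.879 on ND and 0.807, 0.705 and 1.02 on HFD. Among the HFD libraries the genes ran in opposite order, with HFD3 highest for Hadha and lowest for Hadhb.

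The auxiliary enzymes, which make unsaturated fatty acids fit for the cycle, did not pass in edgeR. Eci1, the mitochondrial enoyl-CoA isomerase, had 165, 207 and 163 CPM on ND against 98.9, 146 and 69.9 CPM on HFD. Its groups did not overlap (log2 fold change -0.77, SE 0.26, edgeR adjusted p = 0.0894), and DESeq2 gave an adjusted p of 0.0316. Eci2, the isomerase found in both organelles, ran from 95.8 to 107 CPM on ND and from 64.4 to 90.2 CPM on HFD (log2 fold change -0.41, SE 0.15, edgeR adjusted p = 0.0981), again without overlap. The dienoyl-CoA reductases overlapped between diets, with a log2 fold change of -0.34 for the mitochondrial Decr1 and 0.16 for the peroxisomal Decr2.

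The peroxisomal members held the same number of calls as the mitochondrial ones. Of 13 tested, 4 were lower and 1 was higher, with a median log2 fold change of -0.37, and of 18 mitochondrial members tested, 4 were lower and 1 was higher, with a median of -0.39. All HFD values lay below all ND values in 8 of the 13 and in 7 of the 18. The shares lower were 30.8% of the peroxisomal and 22.2% of the mitochondrial members, against 6.04% of all genes, and the shares higher were 7.69% and 5.56%, against 9.85%. The values lay wholly below in 19.0% of all genes. Members and compartments were chosen with earlier results of these data known, so these shares are descriptions. Per library, the mitochondrial median was -0.47 in HFD1, -0.04 in HFD2 and -0.67 in HFD3 on the log2 scale, and the peroxisomal median was -0.42, -0.31 and -0.43. The medians of the HFD libraries were thus closer together for the peroxisomal members. Single peroxisomal members could still spread widely, as Abcd2 did at 445, 644 and 237 CPM in HFD1 to HFD3. The spread of single members was not compared between the compartments. The difference between the compartments was not tested, since genes are not replicates of a diet. None of the 5 members placed elsewhere or in both passed in edgeR, with 2 of them at an unadjusted p under 0.05 and 0 past the threshold in DESeq2.

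**Figure D3:**
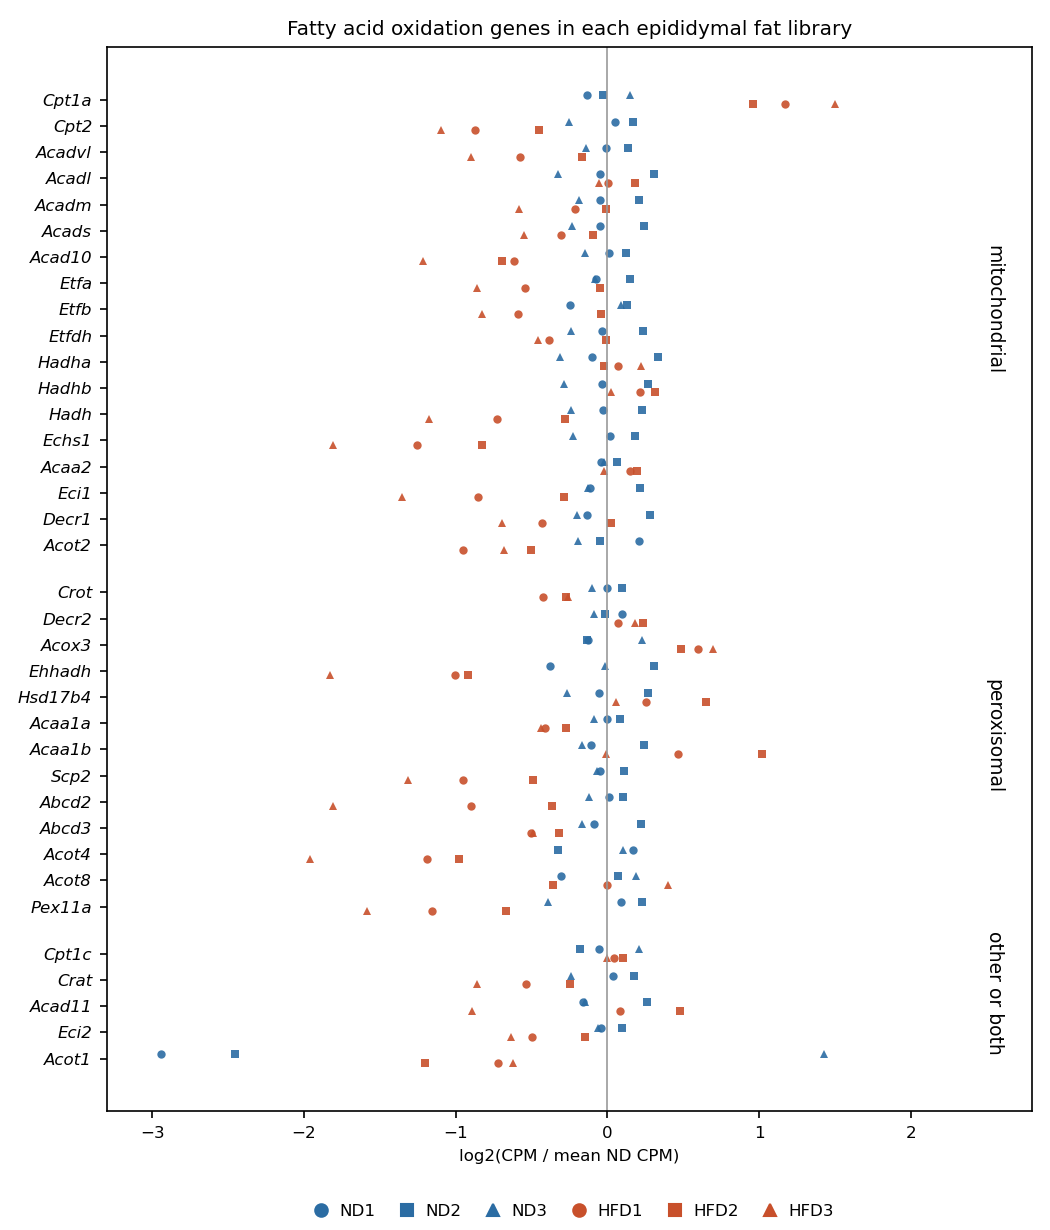
Log2 of the CPM of each tested member in each library over its ND mean, grouped by compartment, with circles for replicate 1, squares for replicate 2 and triangles for replicate 3, ND in blue and HFD in red. HFD3 is the lowest HFD library for 27 of 36 members and HFD2 the highest for 29; Cpt1b and Acox2, which were not tested, are left out.

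The peroxisomal cycle opens with acyl-CoA oxidases, of which Acox3 and Acox2, both for branched chains, are members. Acox3 (chr5:35583040-35615352, plus strand) stood at 45.8, 45.5 and 58.7 CPM on ND against 75.8, 70.1 and 81.0 CPM on HFD. Every HFD value was above every ND value, 1.51-fold on average (log2 fold change 0.59, SE 0.14, edgeR adjusted p = 0.0302). With scaling by the library total alone the log2 fold change was 0.58 and the gene no longer passed (edgeR adjusted p = 0.059). Acox2 had 2, 15 and 51 counts in ND1 to ND3, 0 in all 3 HFD libraries, and no edgeR test. Set against 3 counts per HFD library, or 0.172 CPM, it was at least 6.8-fold lower on HFD. ND3, the library with the epithelial markers, held 75.0% of the ND counts, and without it the bound was at least 2.84-fold. That bound rested on ND2 alone (0.869 CPM), since ND1 (0.108 CPM) was itself under 3 counts.

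The bifunctional enzymes that carry out the next steps did not move as a pair. Ehhadh (chr16:21761287-21787807, minus strand) encodes the bifunctional enzyme linked to dicarboxylic and straight-chain substrates. Ehhadh stood at 68.3, 110 and 87.8 CPM on ND against 44.3, 46.9 and 25.0 CPM on HFD, a 2.29-fold lower mean level without overlap (log2 fold change -1.20, SE 0.27, edgeR adjusted p = 0.029). Hsd17b4, the bifunctional enzyme that also takes branched chains and bile acid precursors, had 290, 363 and 251 CPM on ND against 360, 473 and 313 CPM on HFD. Its groups overlapped (log2 fold change 0.34, SE 0.21, edgeR adjusted p = 0.304).

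Of the thiolases that end the cycle, Scp2 passed in edgeR. Scp2 (chr4:108043839-108144998, minus strand) encodes sterol carrier protein X, a thiolase for branched chains, and from the same gene a sterol carrier protein. It had the highest level per length of all members in both diets, with a mean of 306 FPKM on ND and 165 FPKM on HFD. Scp2 stood at 1011, 1130 and 1001 CPM on ND against 541, 746 and 422 CPM on HFD, again without overlap (log2 fold change -0.88, SE 0.24, edgeR adjusted p = 0.0457). Of its 100-base stretches, 32.2% recur in other genes, among them the pseudogene Scp2-ps2, which was given 326 to 919 counts a library.

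Acaa1a and Acaa1b, the near-identical thiolases for straight chains, leaned apart. Acaa1a had 174, 185 and 164 CPM on ND against 131, 144 and 129 CPM on HFD, without overlap (log2 fold change -0.37, SE 0.12, edgeR adjusted p = 0.0722). DESeq2 gave Acaa1a an adjusted p of 0.0248. Acaa1b had 60, 76.4 and 57.6 CPM on ND against 89.5, 131 and 64.2 CPM on HFD, with HFD3 inside the ND range (log2 fold change 0.55, SE 0.26, edgeR adjusted p = 0.182). The FPKM of Acaa1b over that of Acaa1a was 0.777, 0.930 and 0.791 on ND and 1.53, 2.06 and 1.12 on HFD. By FPKM the order of the pair thus turned between the diets, but by CPM Acaa1a was above Acaa1b in every library. The turn rests on the gene lengths behind the deposited FPKM. In GENCODE M21 the longest coding transcripts are of similar length, 1762 bases for Acaa1a and 1689 for Acaa1b. Their coding sequences are 96.5% identical, with 44 mismatches over 1275 bases, and 21.6% of the 100-base stretches of Acaa1a and 30.5% of those of Acaa1b occur in another gene, so reads could be credited to the wrong copy. A stretch with 11 of the differences, coding bases 259 to 318 in GENCODE M21, is shown because such places are what tells the copies apart, with the differing bases in capitals:
Acaa1a: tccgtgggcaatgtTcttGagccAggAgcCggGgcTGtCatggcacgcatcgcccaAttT
Acaa1b: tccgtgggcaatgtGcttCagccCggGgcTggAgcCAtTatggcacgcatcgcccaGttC

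The peroxisomal transporters Abcd2 and Abcd3, which bring very long and branched acyl-CoA into the organelle, did not pass in edgeR. Abcd2 had 836, 892 and 765 CPM on ND against 445, 644 and 237 CPM on HFD. These groups did not overlap, but the HFD libraries differed among themselves by more than the ND libraries did (SD 203 CPM on HFD and 63.9 CPM on ND, log2 fold change -0.91, SE 0.34, edgeR adjusted p = 0.11). DESeq2 gave it an adjusted p of 0.0274. Abcd3 ran from 99.4 to 130 CPM on ND and from 78.7 to 89.5 CPM on HFD (log2 fold change -0.44, SE 0.14, edgeR adjusted p = 0.0715), with a DESeq2 adjusted p of 0.0466.

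Acyl-CoA thioesterases split acyl-CoA into free fatty acid and coenzyme A. Of the 4 members, 2 were lower on HFD, where 6.04% of all genes tested were. Acot2 (chr12:83987861-83993873, plus strand), the mitochondrial form, stood at 21.5, 18.0 and 16.3 CPM on ND against 9.60, 13.1 and 11.6 CPM on HFD (log2 fold change -0.70, SE 0.18, edgeR adjusted p = 0.0395). Acot4 (chr12:84038379-84048601, plus strand), a peroxisomal form for dicarboxylic acyl-CoA, stood at 11.6, 8.23 and 11.1 CPM on ND against 4.53, 5.23 and 2.65 CPM on HFD (log2 fold change -1.32, SE 0.30, edgeR adjusted p = 0.0267). Neither gene's groups overlapped. Acot8, another peroxisomal form, was level, with means of 11.3 and 11.6 CPM.

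Acot1, the cytosolic form, lies between them in the same cluster, 15616 bases from Acot2 and 20007 bases from Acot4. Acot1 had 0.701, 0.985 and 14.5 CPM on ND against 3.27, 2.35 and 3.51 CPM on HFD. ND3 alone was high, the library that also stood apart by its epithelial markers (315 CPM). The log2 fold change was -0.83 with an SE of 1.05 (edgeR adjusted p = 0.613). Without ND3 it was 1.81 (edgeR adjusted p = 0.0478), so the direction for Acot1 rests on that library. Acot1 and Acot2 are 95.5% identical over their aligned coding bases, and 21.9% and 17.1% of their 100-base stretches recur in another gene.

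Pex11a, which promotes the division and growth of peroxisomes, is the last of the called members. Pex11a (chr7:79735957-79743131, minus strand) stood at 77.5, 85.3 and 55.6 CPM on ND against 32.6, 45.8 and 24.3 CPM on HFD. All HFD values lay below all ND values, 2.13-fold on average (log2 fold change -1.09, SE 0.26, edgeR adjusted p = 0.0323).

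**Figure D4:**
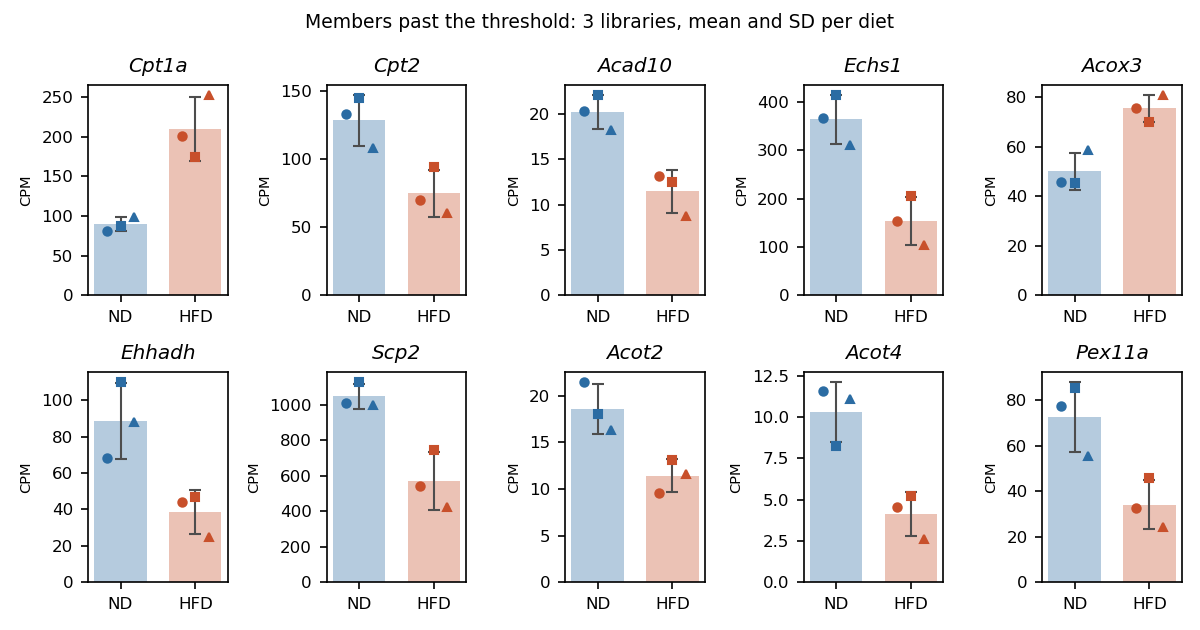
CPM of the 10 members past the edgeR threshold, each library a point (circle, square and triangle for replicates 1, 2 and 3), with the mean as a bar from 0 and the SD as an error bar, ND in blue and HFD in red. Cpt1a and Acox3 are higher on HFD and the other 8 are lower. In none of the 10 do the libraries of the diets overlap, which is no separate result, as the genes were picked on these same values.

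Per length, as given by the deposited FPKM, the members covered a wide range, and the order at the top changed with the diet. On ND the highest mean levels were those of Scp2 (306 FPKM), Etfa (195 FPKM), Eci1 (166 FPKM), Abcd2 (142 FPKM) and Acadl (128 FPKM). On HFD Scp2 (165 FPKM) and Etfa (142 FPKM) were followed by Acadl (131 FPKM), Hsd17b4 (113 FPKM) and Acaa2 (112 FPKM). Cpt1a rose from rank 23 to rank 12 of 38, with means of 21.1 and 49.0 FPKM, while Echs1 went from rank 14 to 21 and Ehhadh from rank 20 to 25. The lowest on ND were Acot4, Acot1, Cpt1c, Acox2 and Cpt1b, each at or below 1.57 FPKM. Of the 37 pairs of neighbours in the ND order, 30 overlapped in their ND libraries, and 31 of the 37 pairs in the HFD order overlapped in theirs. The ranks also rest on the gene lengths behind the deposited FPKM, which can be well above the transcript length. Echs1 had 368 CPM and 45.3 FPKM in ND1, although its longest coding transcript in GENCODE M21 has 1557 bases. Ranks by transcript length were not computed and could differ.

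**Figure D5:**
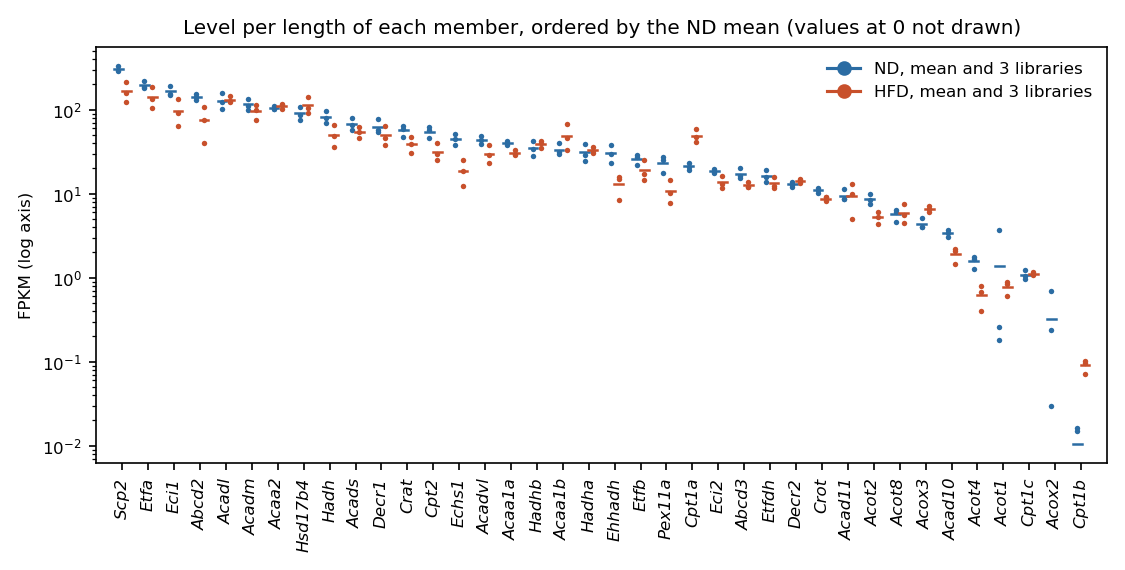
FPKM of the 38 members on a log axis, ordered by the ND mean, with each library as a point and the mean as a line, ND in blue and HFD in red; values of 0 are not drawn. Scp2 is the highest in both diets (306 and 165 FPKM), Cpt1a, at rank 23 on ND, has its HFD points well above its ND points, and Acox2 has ND points only.

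The genes around the pathway were counted in lists of other genes. Of 95 such genes, 85 were tested, and 15 of them were lower and 5 higher on HFD. Each count below is to be read against the 6.04% lower and 9.85% higher among all genes. The malonyl-CoA list sets the brake on Cpt1a, and 2 of its 3 genes were lower. Acaca, a maker of malonyl-CoA, had 704, 2208 and 622 CPM on ND against 125, 171 and 77.3 CPM on HFD (log2 fold change -3.24, SE 0.58, edgeR adjusted p = 0.0146). Acacb, the form at the mitochondrial outer membrane, had 145, 271 and 149 CPM on ND against 55.0, 77.8 and 30.2 CPM on HFD (log2 fold change -1.79, SE 0.39, edgeR adjusted p = 0.0251). Both genes were without overlap, and ND2 was far above the other ND libraries in both. Mlycd, which degrades malonyl-CoA, had a log2 fold change of -0.53 (SE 0.18, edgeR adjusted p = 0.0833).

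Of the 14 transcriptional regulators, 3 were lower and 0 were higher in edgeR, and 6 were lower and 0 higher in DESeq2. Ppargc1a, a coactivator of mitochondrial and oxidation genes, had 7.98, 8.92 and 10.2 CPM on ND against 1.8, 3.01 and 1.21 CPM on HFD, a 4.51-fold lower level without overlap (log2 fold change -2.17, SE 0.35, edgeR adjusted p = 0.0114). Tfam, the mitochondrial DNA transcription factor (log2 fold change -0.51), and Nrip1, a corepressor of oxidation genes (log2 fold change -1.05), also passed. Ppara, the nuclear receptor that drives many members in liver, stood at 6.15, 7.71 and 7.06 CPM on ND against 3.16, 4.51 and 1.44 CPM on HFD. It did not overlap between diets and did not pass in edgeR (log2 fold change -1.20, SE 0.40, edgeR adjusted p = 0.0813), but did in DESeq2 (adjusted p = 0.0267). Pparg, with a log2 fold change of -0.63, and Esrra, with -0.20, passed in neither test.

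Known PPAR targets outside the members were higher where they passed. Of 8 tested, 2 were higher and 0 lower, with a median log2 fold change of 0.96. Pdk4, the kinase that shuts off pyruvate dehydrogenase, had 37.3, 55.5 and 32.4 CPM on ND against 144, 157 and 104 CPM on HFD (log2 fold change 1.69, SE 0.25, edgeR adjusted p = 0.00938). Plin2, a lipid droplet coat protein that macrophages also make, had 234, 344 and 171 CPM on ND against 1259, 802 and 2399 CPM on HFD (log2 fold change 2.57, SE 0.46, edgeR adjusted p = 0.0145). Its order among the HFD libraries was that of the macrophage sums.

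Activation and carnitine supply had 1 of 9 tested genes higher and 0 lower. The gene was Acsl5, an acyl-CoA synthetase (log2 fold change 0.66, SE 0.12, edgeR adjusted p = 0.015). Slc25a20, the carrier that exchanges carnitine esters between the steps of Cpt1a and Cpt2, had means of 72.2 and 73.1 CPM (log2 fold change 0.02). The enzymes for propionyl-CoA, the end product of odd chains, had 2 of 6 lower, Pccb (log2 fold change -1.31) and Mcee (-0.57). The other acyl-CoA dehydrogenases had 2 of 6 lower, Acadsb (-1.21) and Ivd (-1.52), both of which act on branched amino acid intermediates. Ketone body enzymes, 4 tested, and the other thioesterases, 6 tested, had 0 past the threshold in edgeR. At an unadjusted p under 0.05 there were 2 and 1, and past the threshold in DESeq2 there were 1 lower and 1 higher ketone body gene and 1 higher thioesterase.

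Of the remaining peroxisomal genes, most did not pass. Of 15 other peroxisomal lipid genes, 4 were lower, among them the coenzyme A diphosphatase Nudt7 (log2 fold change -0.90), and 2 were higher, among them the ether lipid enzyme Agps (0.65). Cat, the peroxisomal catalase, overlapped between diets (log2 fold change -0.16). All 15 peroxisome biogenesis genes had a negative log2 fold change, with a median of -0.38, and 2 of them passed, the membrane assembly factor Pex3 (-0.81) and the Pex11a relative Pex11g (-1.02).

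Promoters of the members were searched in RefSeq sequence (GRCm38.p6) from 250 bases before to 50 after each start. A total of 34 promoters of 32 members were present. On both strands, 4 of the 34 (11.8%) held the direct repeat AGGTCANAGGTCA, to which PPAR and its partner RXR are known to bind, with up to 2 mismatches, and 1268 of 32851 promoters of all genes (3.86%) held it. The 4 belonged to Echs1, Etfa, Acot4 and Acox2. The exact letters TCAAGGTCA, bound by estrogen-related receptors, were in 0 of the 34 and in 139 of all promoters (0.423%). The matches are shown for Echs1 and Acot4, which were lower on HFD, and for Etfa, which did not pass, with the 13 matched bases in capitals, on the strand of the repeat.
Echs1 (chr7:140116482-140116514, minus strand): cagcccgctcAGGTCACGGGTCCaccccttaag
Acot4 (chr12:84038356-84038388, minus strand): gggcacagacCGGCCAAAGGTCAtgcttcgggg
Etfa (chr9:55512298-55512330, plus strand): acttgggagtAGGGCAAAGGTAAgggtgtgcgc
A match is a description of the letters in the window, and binding was not measured.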

How the data were processed

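Total RNA of epididymal fat was sequenced after library preparation with a kit that does not mark strand. The authors deposited gene counts and FPKM values for all 6 libraries. Their processing notes name CASAVA 1.8, fastp, HISAT2 2.0.5, featureCounts 1.5.0-p3 and DESeq2 1.20.0 and a human build, while the methods of the study name other alignment tools and GRCm38; the identifiers are those of mouse. Of the 54532 identifiers, 54495 were found in GENCODE M21.

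The deposited counts were tested with edgeR 4.0.16 in R 4.3.3 (TMM, filterByExpr, robust quasi-likelihood F-test, diet as the only term), with Benjamini-Hochberg adjustment over all genes. SE is the absolute log2 fold change over the square root of F. DESeq2 1.42.0 and limma 3.58.1 (voom, and log2 of the deposited FPKM plus a pseudocount of 1 or 0.1, with a minimum of 0.5 FPKM) were alternatives, beside other scalings and filters, a replicate block and leaving out each library. The exact permutation test of 3 against 3 libraries cannot go below 0.1 and was not used. The script was tested on simulated counts.

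Every member is described, whatever its value. Members, compartments and lists were chosen with earlier results of these data known. A 100-base stretch counted as shared if another GENCODE M21 transcript held it on either strand. Of the members, 17 share any such stretch, 8 share more than 15%, and 16 have exons that overlap another gene, 11 of them only on the other strand; without strand those reads cannot be told apart. No protein sequence was used here.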

Additional observations from a re-analysis of the deposited data

How the results depend on the processing

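No alternative changed the direction of the members' median. The replicate numbers are shared between the diets, but same-numbered libraries did not deviate together (correlations of -0.0858, -0.0556 and -0.00532 over 15751 genes), and with the replicate block 8 members were lower and 2 higher. Of these, 8 were shared with the fit without the block; Acot2 (edgeR adjusted p = 0.0878) and Acot4 (0.0626) lost their call, and Hadh (0.0468) and Eci1 (0.0464) gained one. DESeq2 called 14 members lower, 8 of them peroxisomal, and 25 list genes lower and 8 higher. Of the 15751 genes tested in edgeR, it called 1532 lower and 1980 higher. With scaling by library totals alone 1 member was higher. On FPKM without a filter 0 members were lower (0 mitochondrial, 0 peroxisomal) and 1 higher, with 1 list gene lower and 2 higher. Leaving out 1 library at a time gave 0 to 16 members lower, 1 to 3 higher, 0 to 9 mitochondrial and 0 to 5 peroxisomal members lower, and 0 to 36 list genes lower and 0 to 10 higher. Those fits called 474 to 3940 genes in all, against 2504 with every library. Fits on 5 libraries have fewer samples.

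Of single members, Acot1 turned to a log2 fold change of 0.40 in voom, 0.41 with the replicate block and 0.26 on FPKM with a pseudocount of 0.1. Leaving out 1 library at a time, Acot1 ran from -1.35 to 1.81, the latter without ND3. Members near 0 also changed sign in those fits, Cpt1c from -0.03 to 0.13, Acadl from -0.12 to 0.23, Acad11 from -0.32 to 0.28, Hadha from -0.07 to 0.30 and Acot8 from -0.19 to 0.21. Acad11 was 0.01 with library totals and 0.00 without a filter and with a minimum of 10 counts. The cause was not tested. Depth limits Cpt1b and Acox2, and 3 libraries per diet limit the rest.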

Other observations

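Several genes of the surrounding lists that did not pass the filter on low counts were seen almost only in ND3, the library with the epithelial markers. Slc27a2, an acyl-CoA synthetase of very long chains known from kidney and liver, had 209 counts in ND3, 1 in ND2 and 0 in the other 4 libraries. Bbox1, the last enzyme of carnitine synthesis, had 252 counts in ND3 and 0 to 6 in each of the others. Acot5, a peroxisomal thioesterase, had 34 counts in ND3 and 0 or 1 elsewhere. These genes were named after their values were seen. The epithelial markers Cdh16, with 837 counts in ND3, and Pax8, with 177, had at most 3 counts in any other library.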
